A study of Rattus norvegicus with 66 samples.

Results

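Male rat pups exposed to Aroclor 1254 were compared directly with male pups exposed to bisphenol A at the same dose. The comparison comprised 13 of the 66 RNA-seq libraries of the series, 6 of Aro5 and 7 of BPA5, chosen by the group, dose and sex given in the sample labels. All were Long Evans pups killed on postnatal day (PND) 6. The dams received 5 mg/kg per day of either chemical, mixed into the same soy-free chow, from 2 weeks before mating until PND 6, so that the pups were exposed through placenta and milk. No untreated pups were used, so a difference gives the distance between the chemicals, and neither group is a reference for the other. The tissue was dorsal hippocampus of both sides with a small piece of lateral cortex, cut from 1 frozen slice. The Aro5 pups came from 5 litters, with 2 pups (120-1y and 120-2y) from litter 120, and the BPA5 pups came from 7 litters. A pup is named by its litter, its number and y for male.

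Aroclor 1254 is a commercial mixture of polychlorinated biphenyls. Some of its congeners bind the aryl hydrocarbon receptor, a transcription factor that switches on Cyp1 genes, others sensitize ryanodine receptors, the calcium release channels of the endoplasmic reticulum, and the mixture lowers circulating thyroid hormone in rats. Bisphenol A, a monomer of polycarbonate plastic, binds estrogen receptors, the membrane receptor Gper1 and, with high affinity, estrogen-related receptor gamma (Esrrg).

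Total counts per library ranged from 16193589 to 35045302 in Aro5 and from 12333169 to 36676752 in BPA5. The Y-linked gene Eif2s3y had at least 1042 counts in each pup, and the labelled tissue was checked on 7 markers. Prox1, a transcription factor of dentate granule cells, had 638 to 5479 counts, Neurod6 of pyramidal cells 1282 to 6341 and the glutamate transporter Slc17a7 2093 to 10051. Zbtb20, another hippocampal marker, had only 23 to 207 counts. The principal component with the largest share of the variance (32.6%) placed both pups of litter 120 at one end and Aro5 pup 108-1y, the one dissected latest (15.45 h), at the other, so it separated pups within Aro5. It spread the BPA5 pups as well, with 90-2y (-29.1) near 108-1y (-33.1) and 88-3y (27.2) toward litter 120 (47.1 and 45.6). By their labels, 4 pups (108-1y and 117-4y of Aro5, 79-2y and 86-9y of BPA5) were dissected outside 10.30 to 13.20 h, the time window given in the methods, and they are part of the main result. BPA5 pup 79-2y stood apart in interferon-induced genes, as described below.

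Transcript levels were close between the chemicals. Of 16566 genes tested by edgeR's quasi-likelihood test, 0 had an adjusted p under 0.05 (Benjamini-Hochberg), and the smallest adjusted p was 0.904. At an unadjusted p under 0.05 there were 542 genes (3.27% of those tested), 223 with higher and 319 with lower values in Aro5. DESeq2 called 1 gene, Slfn4, and limma-voom with sample quality weights called 0.

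The intervals give the precision of each gene taken alone, without adjustment over all genes. The 95% interval of the Aro5 minus BPA5 difference lay within a 2-fold change either way for 15546 genes (93.8%) and within 1.5-fold for 12136 genes (73.3%). Its median half-width was 0.28 on the log2 scale, a factor of 1.21. Among the 1867 genes with a mean level under 1 CPM (CPM, the counts of a gene relative to the TMM-scaled total of its library), 70.5% had an interval within 2-fold, against 99.4% of the 2365 genes from 100 CPM upward. Since calls needed an adjusted p, differences with an interval apart from 0 could also go without a call, as that of Slfn4 did. No gene had an interval that lay wholly beyond 2-fold. A p over the threshold does not show that the chemicals act alike.

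**Figure D1:**
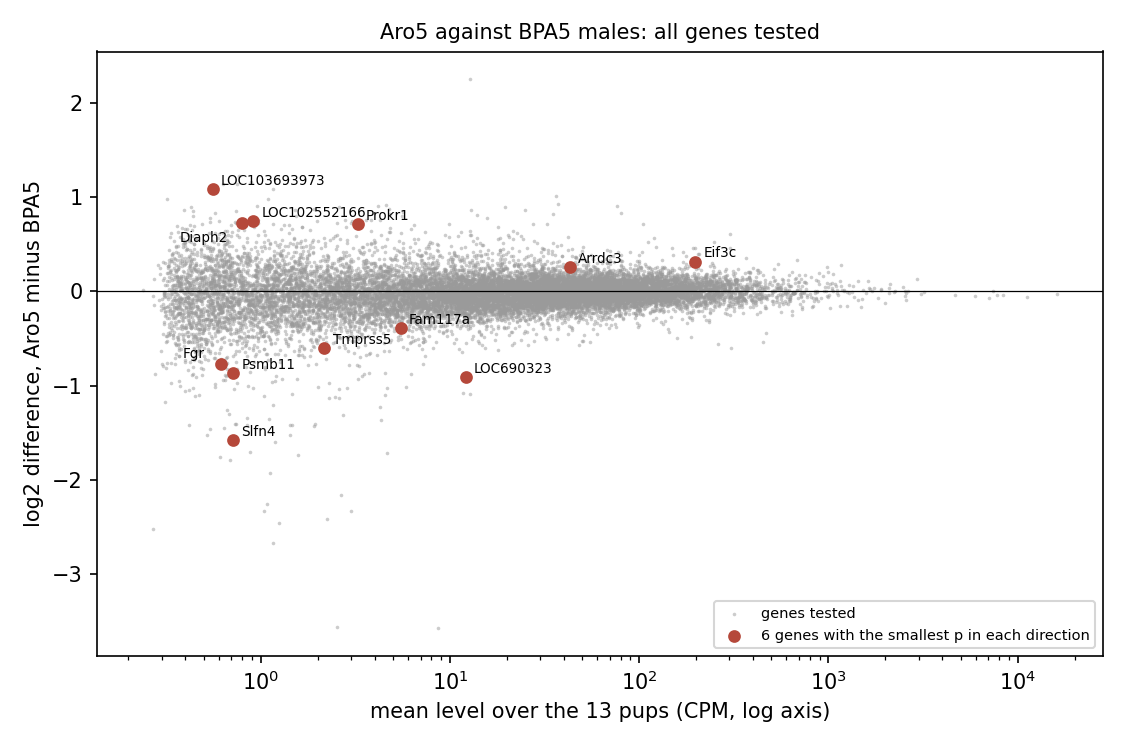
Each point is 1 of the 16566 genes tested in male pups, with its mean level over 13 pups in CPM on a log axis and its fitted log2 difference, Aro5 minus BPA5. Red points are the 6 genes with the smallest p in each direction, and the cloud narrows around 0 from left to right, with 90% of all genes between -0.34 and 0.28.

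Slfn4 had the smallest p of all genes. It is a member of the Schlafen family, an interferon-inducible gene known from macrophages and other myeloid cells. Its level was 0.121, 0.307 and 0.565 CPM (lowest, median and highest) in the 6 Aro5 pups. In the 7 BPA5 pups it was 0.646, 0.961 and 1.59 CPM. Each Aro5 pup was thus below each BPA5 pup. Such groups without overlap occurred in 8 of all genes tested (0.0483%). Of the 1716 ways to split the pups into groups of 6 and 7, a share of 0.00117 separates the values of a gene. The share seen was smaller than this, so the lack of overlap is given as a description only. The counts behind these levels were low, 2 to 20 in Aro5 and 8 to 59 in BPA5. The fitted log2 difference was -1.57 (SE 0.30, 95% interval -2.20 to -0.94, unadjusted p = 8.97e-05, edgeR adjusted p = 0.904), a level in Aro5 0.336 times that in BPA5. With DESeq2 the adjusted p was 0.0223. Over the 25 alternative fits that tested it, some with other pups, the log2 difference stayed between -1.80 and -1.33. Slfn4 had the smallest p in 20 of them, with adjusted p from 0.00158 to 1.00. The -1.33 came from high-dose females and low-dose males without the 13 males, and the 0.00158 from all 3 sets. With 1 of the males left out, the difference was -1.80 to -1.42. The filter of at least 10 counts in every pup removed Slfn4. Reads that Slfn4 shares with other Schlafen genes could not be separated. Of 6 tested genes of this family, listed after the values were seen, 6 were lower in Aro5, 2 with an unadjusted p under 0.05 (background 1.93%). In high-dose females 4 of 6 were lower, with 2 passing as lower and 1 as higher (background 2.48% and 1.48%). In low-dose males 4 of 6 were lower, with 2 passing as lower (background 4.37%).

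The same contrast was available in pups that played no part in choosing Slfn4. In high-dose females, Slfn4 was at 0.238 to 0.639 CPM in 5 Aro5 pups (values 0.238, 0.242, 0.253, 0.582 and 0.639) and at 0.939, 1.08, 1.09 and 1.6 CPM in 4 BPA5 pups. These groups did not overlap either, and the fitted log2 difference was -1.55 (edgeR unadjusted p = 0.000516). Of the 9 females, 8 were from litters that also gave male pups. The 5 Aro5 females came from 4 litters, since 115-13x and 115-7x shared litter 115. The low-dose males were from other litters and another set of libraries, and were given 0.5 mg/kg. In them Slfn4 was at 0.288, 0.512, 0.553 and 0.962 CPM in Aro0.5 and at 0.739, 0.771, 1.69 and 1.73 CPM in BPA0.5. These groups overlapped, with 14 of 16 pairs of pups lower in Aro0.5, and the log2 difference was -1.11 (edgeR unadjusted p = 0.0175).

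Two-sided exact permutation tests on log2 CPM gave p = 0.00117 in high-dose males and p = 0.0159 in females, each the smallest p that the group sizes allow. They count each pup as a unit, although males 120-1y and 120-2y, and females 115-13x and 115-7x, shared a litter. Both p-values may therefore be too small. In low-dose males the exact permutation test gave p = 0.0857, where 0.0286 was the smallest possible. The male value is a description, since Slfn4 was chosen there for its small p. In a fit of the 17 other pups alone, with set as a term, Slfn4 had the smallest p of 16856 genes (log2 difference -1.33, SE 0.27, edgeR unadjusted p = 0.000105, adjusted p = 0.498). Most females in that fit came from litters that also gave high-dose males, and it had no term for litter. Its values are therefore not independent of the males in which Slfn4 was chosen. In a fit of all 30 pups, which includes the males that chose it, the edgeR adjusted p was 0.00158. The difference was not shown to depend on sex (interaction, unadjusted p = 0.99) or dose (unadjusted p = 0.40).

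**Figure D2:**
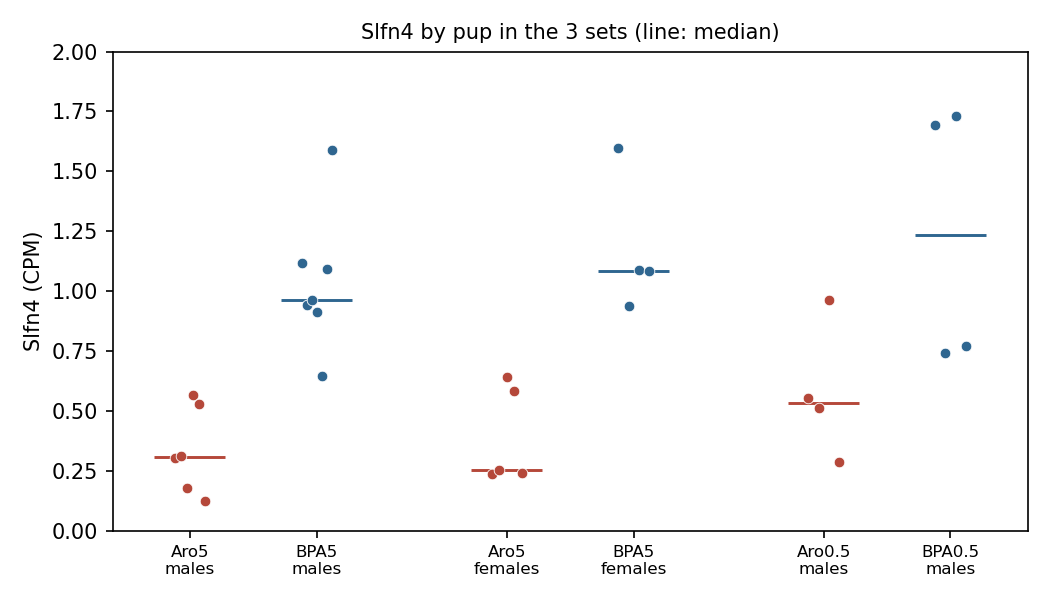
Slfn4 in CPM for each pup of the high-dose males, high-dose females and low-dose males, with the median of each group as a line. Aro5 pups lie below all BPA5 pups in both sexes, at most 0.565 against at least 0.646 CPM in males, whereas Aro0.5 and BPA0.5 pups overlap.

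The remaining 5 genes with the smallest p among those with lower values in Aro5 were Psmb11, Tmprss5, Fgr, LOC690323 and Fam117a, each with an edgeR adjusted p of 0.904. Fam117a was at 4.28, 4.50 and 5.32 CPM (lowest, median, highest) in Aro5 against 5.75, 6.10 and 7.13 CPM in BPA5, again without overlap. Its log2 difference was -0.39 (SE 0.10) in males, -0.00 in females and -0.04 in low-dose males. It was thus separated in 1 of the 3 sets only, a difference between sets that did not pass the test (adjusted p of the sex interaction 0.898). Psmb11, the thymus-type proteasome subunit, was at 0.297, 0.523 and 0.654 CPM in Aro5 and at 0.646, 0.929 and 1.09 CPM in BPA5. Only 1 Aro5 pup reached the BPA5 range, and the log2 difference was -0.86 (SE 0.19).

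Tmprss5, a transmembrane serine protease, was at 1.39, 1.69 and 2.06 CPM in Aro5 and at 1.78, 2.55 and 3.00 CPM in BPA5. The low BPA5 value belongs to pup 88-3y, and the other BPA5 pups were above each Aro5 pup. The log2 difference was -0.60 (SE 0.15) in males and -0.46 (SE 0.14, unadjusted p = 0.00688) in females, but -0.07 in low-dose males. Fgr, a Src-family kinase of myeloid cells, was at 0.303, 0.463 and 0.537 CPM in Aro5 and at 0.484, 0.769 and 1.09 CPM in BPA5, with a log2 difference of -0.77 (SE 0.19) in males and 0.05 in females. LOC690323 had a log2 difference of -0.91 (SE 0.22) in high-dose males. In low-dose males the difference was 1.04 (SE 0.39, unadjusted p = 0.0195), with the opposite sign. The dose interaction had an unadjusted p of 0.000471 (edgeR adjusted p = 0.354, background of lower values 5.33% and of higher values 8.58%). This background turned to more lower than higher values with DESeq2's size factors (1212 and 1001 genes).

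The 6 genes with the smallest p among those with higher values in Aro5 were LOC103693973, LOC102552166, Prokr1, Eif3c, Arrdc3 and Diaph2. Eif3c, a subunit of translation initiation factor 3 and the most deeply counted of them, was at 194, 212 and 261 CPM in Aro5 and at 160, 176 and 207 CPM in BPA5. The BPA5 maximum was pup 79-2y, and the other BPA5 pups were below each Aro5 pup. Its log2 difference was 0.32 (SE 0.08, unadjusted p = 0.00207) in males and 0.28 (SE 0.10, unadjusted p = 0.013) in females, and 0.11 (SE 0.11) in low-dose males. Prokr1, a prokineticin receptor, was at 3.21, 3.84 and 5.94 CPM in Aro5 and at 1.53, 2.73 and 3.39 CPM in BPA5, with some overlap. On the log2 scale the difference was 0.71 (SE 0.19) in high-dose males and -0.57 (SE 0.29) in low-dose males.

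Arrdc3, which encodes an arrestin-domain adaptor of membrane receptors, was at 44.6, 47.2 and 50.2 CPM in Aro5 and at 34.7, 40.1 and 46.4 CPM in BPA5. The log2 difference was 0.26 (SE 0.07) in high-dose males, 0.04 in females and -0.51 (SE 0.23) in low-dose males. Diaph2, a formin that assembles actin, had a log2 difference of 0.72 (SE 0.22). LOC103693973 had the largest value of this group, 1.09 (SE 0.24), at 0.330 to 1.04 CPM in Aro5 and 0.313 to 0.417 CPM in BPA5, where only Aro5 pup 120-1y lay in the BPA5 range. LOC102552166 had a log2 difference of 0.75 (SE 0.19). Of the 12 genes, 7 had the same sign in females, 3 of them with an unadjusted p under 0.05 (Slfn4, Tmprss5 and Eif3c, background 2.48% lower and 1.48% higher). In low-dose males 5 of the 11 that could be tested had the same sign, and 1, Slfn4, also had an unadjusted p under 0.05 (background in this direction, 4.37%). There, 2 genes (LOC690323 and Arrdc3) had the opposite sign with an unadjusted p under 0.05 (background 4.99% higher and 4.37% lower).

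Groups without overlap, 8 genes in all, had lower values in Aro5 for 6 genes (0.0362% of those tested) and higher values for 2 (0.0121%). They were singled out after their values were seen, and random splits into 6 and 7 pups separate a larger share (0.00117). Beside Slfn4 and Fam117a, the lower ones were Lrig3, Slc39a1, Rpusd4 and Rexo4. Lrig3, a leucine-rich repeat membrane protein, was at 1.96 to 2.54 CPM in Aro5 and 2.59 to 3.24 CPM in BPA5, with a log2 difference of -0.36 (SE 0.11). Slc39a1, a zinc importer, was at 40.6 to 49.2 CPM in Aro5 and 49.2 to 60.0 CPM in BPA5 (-0.22, SE 0.07). Rpusd4 and Rexo4 differed by less, -0.16 (SE 0.06) and -0.11 (SE 0.05). The higher ones were Rbm20, a splicing factor, at 0.965 to 1.24 CPM in Aro5 and 0.474 to 0.955 CPM in BPA5 (0.47, SE 0.17), and Polr3a, the largest subunit of RNA polymerase III (0.13, SE 0.06). Apart from Slfn4, none of the 8 had an unadjusted p under 0.05 in females or in low-dose males (edgeR).

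**Figure D3:**
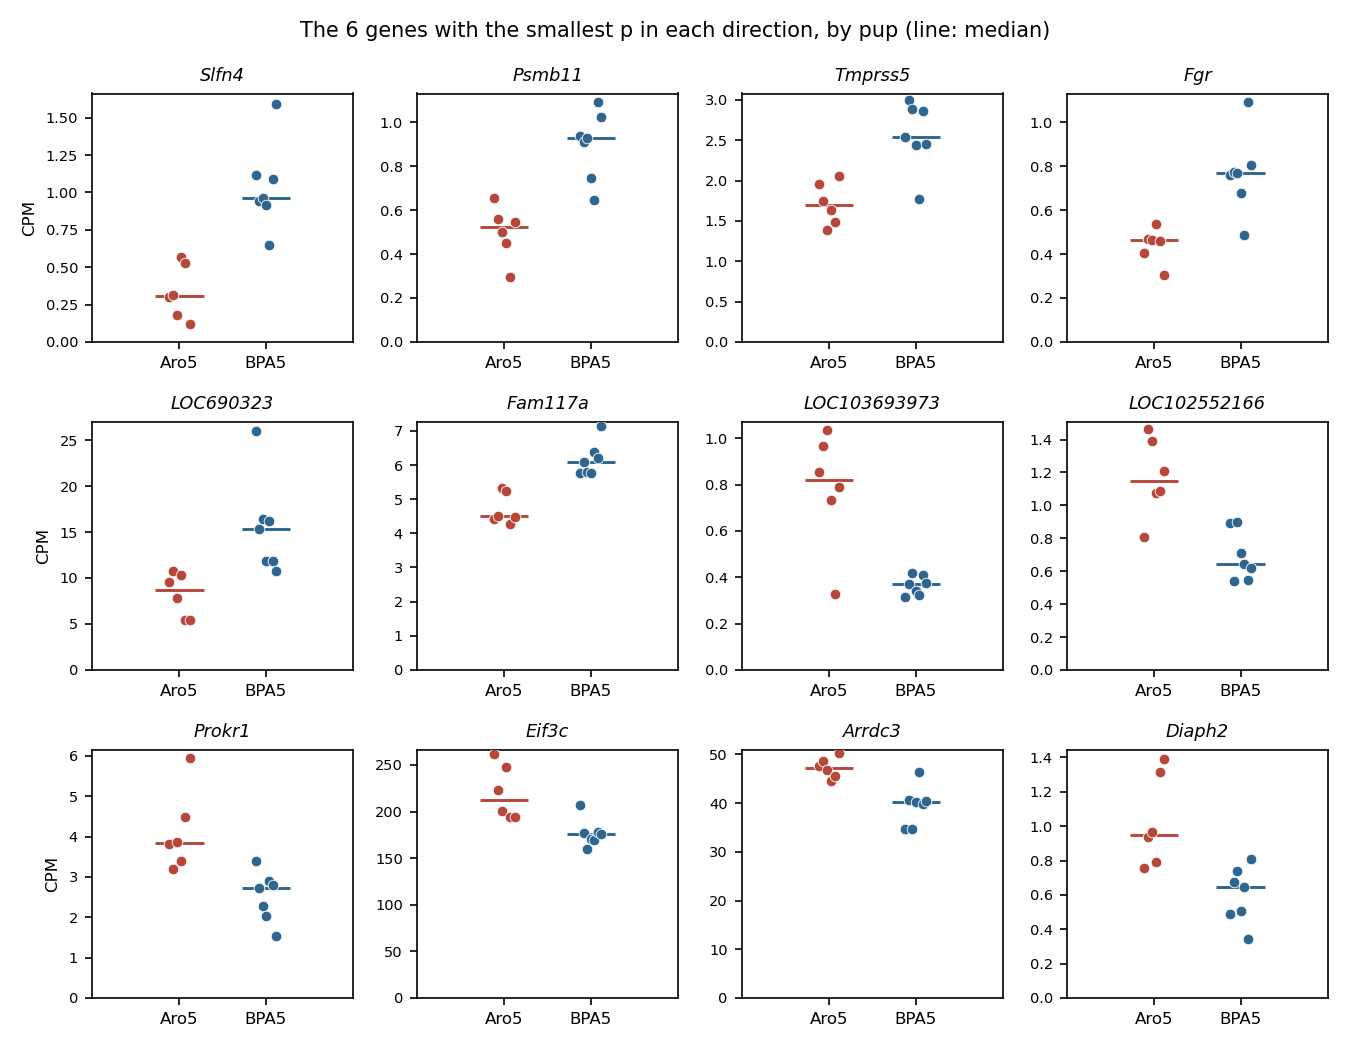
Level in CPM of each Aro5 (red) and BPA5 (blue) male pup for the 6 genes with the smallest p in each direction, with the group median as a line and axes from 0. Slfn4 and Fam117a are the 2 genes without overlap, and in the other 10 genes 1 or more pups of each group lie in the range of the other.

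The aryl hydrocarbon receptor pathway is the classical target of dioxin-like biphenyls. Of 11 genes, 8 could be tested, of which 0 had an adjusted or an unadjusted p under 0.05, and the median log2 difference was 0.03 (all genes, -0.01). The inducible enzymes Cyp1a1 and Cyp1a2 and the repressor Ahrr were too low to be tested. Cyp1b1, an inducible hydroxylase, was at 1.33, 2.92 and 4.95 CPM in Aro5 and at 1.76, 3.96 and 6.57 CPM in BPA5, so that the ranges overlapped widely. Its log2 difference was -0.31 (95% interval -0.995 to 0.38). Tiparp, a feedback inhibitor of the receptor, had a difference of 0.06 (-0.25 to 0.37) and Nqo1, a quinone reductase, one of -0.06 (-0.27 to 0.15). The receptor itself, Ahr, had 0.26 (-0.38 to 0.90) and its partner Arnt 0.01 (-0.13 to 0.14). The intervals of all 8 genes lay within 2-fold.

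Thyroid hormone reaches the brain in part through the transporter Slco1c1, is activated by Dio2, inactivated by Dio3 and acts through Thra and Thrb. All 14 genes of this list were tested, and 0 had an adjusted or an unadjusted p under 0.05. This count rested on single pups, since 2 genes had higher values at an unadjusted p under 0.05 without Aro5 pup 108-1y (5.92% of all genes in that fit), 1 without BPA5 pup 79-2y (1.35%) and 1 without litter 120 (1.26%). Dio3 had the largest difference, at 0.198, 0.606 and 1.91 CPM in Aro5 and at 0.161, 0.323 and 0.948 CPM in BPA5. The ranges overlapped and the log2 difference was 1.14 with a wide interval of -0.07 to 2.36 (unadjusted p = 0.0639). Klf9, a hormone-induced transcription factor, was at 13.8, 24.9 and 39.5 CPM in Aro5 and at 12.4, 16.3 and 27.5 CPM in BPA5 (0.46, -0.01 to 0.92, unadjusted p = 0.0532). Thrb had 0.34 (-0.03 to 0.70) and Thra -0.10 (-0.37 to 0.17). For Dio2 the difference was 0.20 (-0.18 to 0.59), and for Slco1c1 0.06 (-0.13 to 0.24). Hr, a corepressor and hormone target, had 0.11 (-0.36 to 0.58). The late targets Mbp, a myelin protein, and Nrgn, a postsynaptic calmodulin-binding protein, had -0.19 (-0.72 to 0.33) and 0.02 (-0.54 to 0.58).

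In the list of steroid and estrogen-related receptors, 10 genes were tested. Esr2, the estrogen receptor beta gene, was too low. Gper1 was the only one with an unadjusted p under 0.05 (background of lower values 1.93%). It was at 2.30, 2.53 and 3.53 CPM in Aro5 and at 2.77, 3.39 and 3.91 CPM in BPA5. The ranges overlapped, with the Aro5 median below the lowest BPA5 pup, and the log2 difference was -0.31 (-0.58 to -0.04, edgeR unadjusted p = 0.0257, adjusted p = 0.904). Without litter 120, 0 genes of the list had such a p, and without Aro5 pup 108-1y there was 1 in each direction (all genes, 5.92% higher and 2.38% lower). Esr1, the estrogen receptor alpha gene, had 0.23 (-0.14 to 0.60) and Esrrg -0.01 (-0.44 to 0.42). Esrrb, another estrogen-related receptor, had -0.89 with a wide interval (-1.89 to 0.11). The glucocorticoid receptor gene Nr3c1 had 0.19 (-0.11 to 0.48), and 0 of the 8 glucocorticoid target genes had an unadjusted p under 0.05.

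All 12 genes of calcium release were tested, of which 0 had an unadjusted p under 0.05, and their intervals lay within 2-fold. Ryr2, the main neuronal ryanodine receptor, was at 73.0, 90.7 and 103 CPM in Aro5 and at 62.4, 67.8 and 119 CPM in BPA5, so that the highest pup was in BPA5 although the median was higher in Aro5. Its log2 difference was 0.20 (-0.11 to 0.51). Ryr3 had 0.14 (-0.09 to 0.38) and Ryr1 -0.28 (-0.73 to 0.16). The channel stabilizers Fkbp1a and Fkbp1b had 0.07 (-0.09 to 0.24) and 0.01 (-0.12 to 0.14). In the antioxidant list, 1 of 10 genes had an unadjusted p under 0.05, Hmox1, heme oxygenase, with -0.27 (-0.54 to -0.01, background of lower values 1.93%). Without BPA5 pup 79-2y or without litter 120 it was 0 of 10.

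The study turned on Sox and Pou transcription factors and on genes of cell signalling, a list that it chose on these libraries. Of 19 entries tested, 14 had higher and 5 lower values in Aro5, with a median log2 difference of 0.08. None had an adjusted p under 0.05, and 1 had an unadjusted p under 0.05 (background in this direction, 1.35%). This was Erbb4, the neuregulin receptor of interneurons, at 3.52, 8.80 and 10.3 CPM in Aro5 and at 2.86, 4.89 and 8.96 CPM in BPA5. The groups overlapped and the log2 difference was 0.56 (0.01 to 1.10, edgeR unadjusted p = 0.0466). Without Aro5 pup 108-1y, 4 entries had higher values with an unadjusted p under 0.05, while the share of all genes that did climbed to 5.92%. Without litter 120 there were 0 entries.

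Sox6, a regulator of interneuron maturation, was at 11.0, 21.0 and 24.1 CPM in Aro5 and at 10.6, 16.2 and 23.2 CPM in BPA5, so that both groups spanned nearly the same range. Its difference was 0.21 (-0.18 to 0.60), and that of Sox11, expressed in young neurons, 0.09 (-0.26 to 0.44). Sox5 had 0.17 (-0.11 to 0.45) and the progenitor factor Sox2 -0.06 (-0.29 to 0.16). Pou3f2 (Brn2) and Pou2f2 (Oct2) had -0.15 (-0.71 to 0.42) and -0.05 (-0.61 to 0.51). Gli3, the transducer of hedgehog signals, had 0.22 (-0.30 to 0.74), and the ligand of Erbb4, Nrg1, 0.03 (-0.25 to 0.30). Tcf7l2, a Wnt effector also strongly expressed in thalamus, has 2 entries, the more abundant at 23.5 to 512 CPM in Aro5 and 127 to 532 CPM in BPA5, with a difference of -0.31 (-1.47 to 0.85), the other with -0.59 (-1.77 to 0.58). In females 17 of the 19 entries had lower values in Aro5 (median log2 difference -0.20) and in low-dose males 15 (median -0.20), so that the predominance of higher values was not found there.

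Of 11 interneuron genes, 10 were tested and 0 had an unadjusted p under 0.05 (1, with a lower value, without BPA5 pup 79-2y, where 2.12% of all genes did). Npy was too low to be tested. Pvalb, the calcium-binding protein of fast-spiking cells, was at 0.607, 3.32 and 5.82 CPM in Aro5 and at 1.86, 6.22 and 10.2 CPM in BPA5. Pups of each group varied several-fold and overlapped, and the log2 difference was -0.86 (-1.84 to 0.12, unadjusted p = 0.0809). Sst had -0.06 (-0.52 to 0.39) and Vip -0.04 (-0.44 to 0.37). The GABA-synthesizing enzymes Gad1 and Gad2 had 0.13 (-0.24 to 0.49) and 0.44 (-0.17 to 1.05).

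The ratio of Pvalb to Nos1, the neuronal nitric oxide synthase, was 0.181 ± 0.138 (SD, n = 6) in Aro5 and 0.333 ± 0.259 (SD, n = 7) in BPA5. The difference of means was -0.153 (95% interval -0.417 to 0.0935, two-sided exact permutation test, p = 0.228). KCC2 (Slc12a5) extrudes chloride and NKCC1 (Slc12a2) imports it, and their ratio climbs as GABA becomes inhibitory. The ratio of counts was 2.79 ± 0.702 (SD, n = 6) in Aro5 and 3.35 ± 1.36 (SD, n = 7) in BPA5. Its log2 difference was -0.22 (-0.82 to 0.38, two-sided exact permutation test, p = 0.443). Adjusted over both ratios, each p was 0.443. The lowest Aro5 ratios were those of litter 120 (2.07 and 1.82), and the highest of all was BPA5 pup 81-1y (5.96).

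Other neuronal groups gave few differences. Among 16 GABA-A receptor and chloride transport genes, 14 had higher values in Aro5 (median log2 difference 0.12), of which 0 had an unadjusted p under 0.05. Without litter 120 this was 5 of 16 (median -0.05), so the direction rested on that litter. Without Aro5 pup 108-1y it was 15 of 16 (median 0.19), 4 of them with an unadjusted p under 0.05 (all genes, 5.92%). Among 15 glutamate receptor subunits 1 had an unadjusted p under 0.05, Grin2d, with a lower value in Aro5 (-0.45, -0.90 to -0.00, background 1.93%). Without Aro5 pup 108-1y, 0 subunits passed with lower and 4 with higher values, and without litter 120 there were 0. None of 15 sodium and potassium channels, 16 vesicle release genes, 14 immediate early genes and 15 clock genes did. Without Aro5 pup 108-1y, 3 channels and 1 vesicle release gene passed with higher values. Without litter 120 (all genes, 1.26% higher and 2.02% lower), 2 immediate early genes passed with higher values and 2 clock genes did, 1 in each direction, and without BPA5 pup 79-2y 1 clock gene did. Of 73 ribosomal protein genes, 69 had lower values in Aro5 (median -0.08), and without litter 120 there were 28 (median 0.02). The 13 mitochondrially encoded genes had a median of -0.02.

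Tissue next to the hippocampus varied between pups. Summed over its 10 markers, the thalamus list ranged from 170 to 1240 CPM in Aro5 and from 374 to 1251 CPM in BPA5. The striatum list ranged from 134 to 1030 CPM in Aro5 and from 109 to 475 CPM in BPA5. Aro5 pup 116-6y had the lowest thalamic sum and a high striatal one (692 CPM), and its group mate 120-1y the reverse (1240 and 134 CPM). The littermate 120-2y differed from 120-1y in the same way (281 and 1030 CPM). In such bulk tissue, fewer cells of a type and less RNA per cell cannot be told apart.

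Between the chemicals, 9 of 10 striatal genes had higher values in Aro5, with a median log2 difference of 0.65, and 10 of 11 thalamic entries had lower ones (median -0.35). Of these, only Drd1, the D1 dopamine receptor, had an unadjusted p under 0.05 (background of higher values 1.35%, of lower values 1.93%). It was at 18.4, 40.8 and 113 CPM in Aro5 and at 9.61, 25.7 and 36.1 CPM in BPA5 (0.93, 0.09 to 1.77, edgeR unadjusted p = 0.0327). Of the neocortical markers, 8 of 10 were higher in Aro5 (median 0.25), 2 of them with an unadjusted p under 0.05 (background of higher values 1.35%). These were Tbr1 at 0.54 (0.09 to 0.99, edgeR unadjusted p = 0.0212) and Tle4 at 0.29 (0.03 to 0.55, edgeR unadjusted p = 0.0299). The neocortical sum was 511 to 603 CPM in Aro5 and 384 to 594 CPM in BPA5, where 5 of the 7 pups were below each Aro5 pup. Without litter 120, 0 striatal genes and 1 neocortical gene had an unadjusted p under 0.05 (all genes, 1.26% higher), and the Drd1 difference was 0.52 without 120-2y. In fitted values, high-dose females had the same direction as the males. There 8 of 10 striatal genes were higher in Aro5 (median 0.24) and 9 of 11 thalamic entries lower (median -0.23), of which 0 had an unadjusted p under 0.05. Striatal sums of the females were 142, 215, 224, 682 and 783 CPM in Aro5 and 148, 304, 370 and 447 CPM in BPA5. Only Aro5 pups 115-7x and 116-1x were above the BPA5 range. Thalamic sums overlapped too, at 514 to 1134 CPM in Aro5 and 691 to 1469 CPM in BPA5. In low-dose males the signs of both lists turned, with 0 of 10 striatal genes higher in Aro0.5 (median -1.02, 9 with an unadjusted p under 0.05, background of lower values 4.37%) and 10 of 11 thalamic entries higher (median 0.48, 7 with an unadjusted p under 0.05, background of higher values 4.99%). The neocortical direction was found in neither set. In females 5 of 10 neocortical markers were higher in Aro5 (median 0.03, 0 with such a p). In low-dose males 5 of 10 were higher in Aro0.5 (median -0.03), and 3 had such a p, all with lower values (background 4.37%). The share of these tissues in the values of Erbb4, Gad2, Tcf7l2 and Pvalb, which they also express, was not tested.

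Among glia, 2 of 10 microglial genes had an unadjusted p under 0.05, both with lower values in Aro5 (background in this direction, 1.93%). Tmem119, a marker of resident microglia, was at 0.855, 1.09 and 1.47 CPM in Aro5 and at 1.05, 1.70 and 2.34 CPM in BPA5 (-0.56, -0.97 to -0.14, edgeR unadjusted p = 0.0124). Cd68, a lysosomal protein of phagocytes, had -0.35 (-0.65 to -0.04, edgeR unadjusted p = 0.0281), whereas the receptors Cx3cr1 and P2ry12 had -0.08 (-0.32 to 0.17) and 0.08 (-0.30 to 0.46). The count was 1 without Aro5 pup 108-1y (all genes, 2.38% lower) and 0 without litter 120. In females 9 of the 10 had higher values in Aro5. None of 8 astrocyte, 12 oligodendrocyte lineage and 8 endothelial genes had an unadjusted p under 0.05. The meningeal list was lower in Aro5 for 7 of 7 tested genes (median -0.27, 0 with an unadjusted p under 0.05), and in females for 2 of 7. Its sum was 262 to 342 CPM in Aro5 and 239 to 501 CPM in BPA5. The blood list was lower in Aro5 for 4 of 4 genes in males (median -0.43, 0 with an unadjusted p under 0.05). In females it was higher for 4 of 4 (median 0.44, 3 with such a p, background of higher values 1.48%). In low-dose males it was lower for 4 of 4 (median -0.30, 2 with such a p, background of lower values 4.37%).

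Markers of neural progenitors and new neurons were lower in Aro5 for 10 of 12 genes (median -0.18), and those of dividing cells for 14 of 16 (median -0.11), with 0 at an unadjusted p under 0.05 in either list. Without Aro5 pup 108-1y, BPA5 pup 79-2y or litter 120 there were at most 2 in a list, all with lower values (all genes, 2.38%, 2.12% and 2.02% lower). Neurog2, a proneural factor, had the largest difference, -0.71 (-1.48 to 0.07). In granule and pyramidal cells, 1 of 11 genes had an unadjusted p under 0.05 (background of lower values 1.93%). This was C1ql2, a synaptic protein of mossy fibres, with -1.60 (-3.08 to -0.12, edgeR unadjusted p = 0.0355), at 0 to 0.923 CPM in Aro5 and 0.161 to 7.24 CPM in BPA5. The highest value was that of BPA5 pup 81-1y, without which the difference was -0.50, and no gene of the list had such a p without Aro5 pup 108-1y or without litter 120. Prox1 had -0.34 (-1.10 to 0.42).

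Since Slfn4 is inducible by interferon, 16 tested interferon-induced genes were examined after the values had been seen, as a description. All 16 had lower fitted values in Aro5 (median log2 difference -0.59), and all 16 had their highest level in 1 BPA5 pup, 79-2y. The summed level of the list was 304 CPM in this pup and 92.9 to 110 CPM in the other 12. Irf7, the master regulator of type I interferon responses, was at 23.3 CPM in 79-2y against a BPA5 median of 0.982 CPM and an Aro5 range of 0.593 to 1.5 CPM. Ifit1 was at 12.0 CPM and Slfn3 at 8.49 CPM in this pup, against BPA5 medians of 1.13 and 0.477 CPM. The same pup had the highest summed level of the meningeal list (501 CPM, the others 239 to 423 CPM) and of the choroid plexus list (3678 CPM, the others 1249 to 3303 CPM), and the part of these tissues in its interferon-induced genes was not tested. Without 79-2y the median difference of the list was -0.11, with 11 of 16 genes lower. The sister 79-4x had a summed level of 94.2 CPM, within the 88.3 to 114 CPM of the 9 females.

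Slfn4 did not follow this pattern. In 79-2y it was at 1.12 CPM, within the range of the other BPA5 pups, and its log2 difference without 79-2y was -1.56. Of 15 tested genes of antigen presentation, also chosen after their values were seen, 15 had lower values in Aro5 (median -0.35), and 14 did without 79-2y (median -0.27). RT1-CE5, a class I gene, was at 4.61, 5.63 and 6.43 CPM in Aro5 and at 5.81, 7.72 and 11.3 CPM in BPA5, with some overlap (-0.50, SE 0.15). Psme1, a proteasome activator, was at 48.7, 56.4 and 60.1 CPM in Aro5 and at 52.9, 69.9 and 73.6 CPM in BPA5 (-0.28, SE 0.08). In females 10 of the 15 genes had higher values in Aro5 (median 0.06). Reads of the many similar RT1 genes cannot be assigned with certainty.

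**Figure D4:**
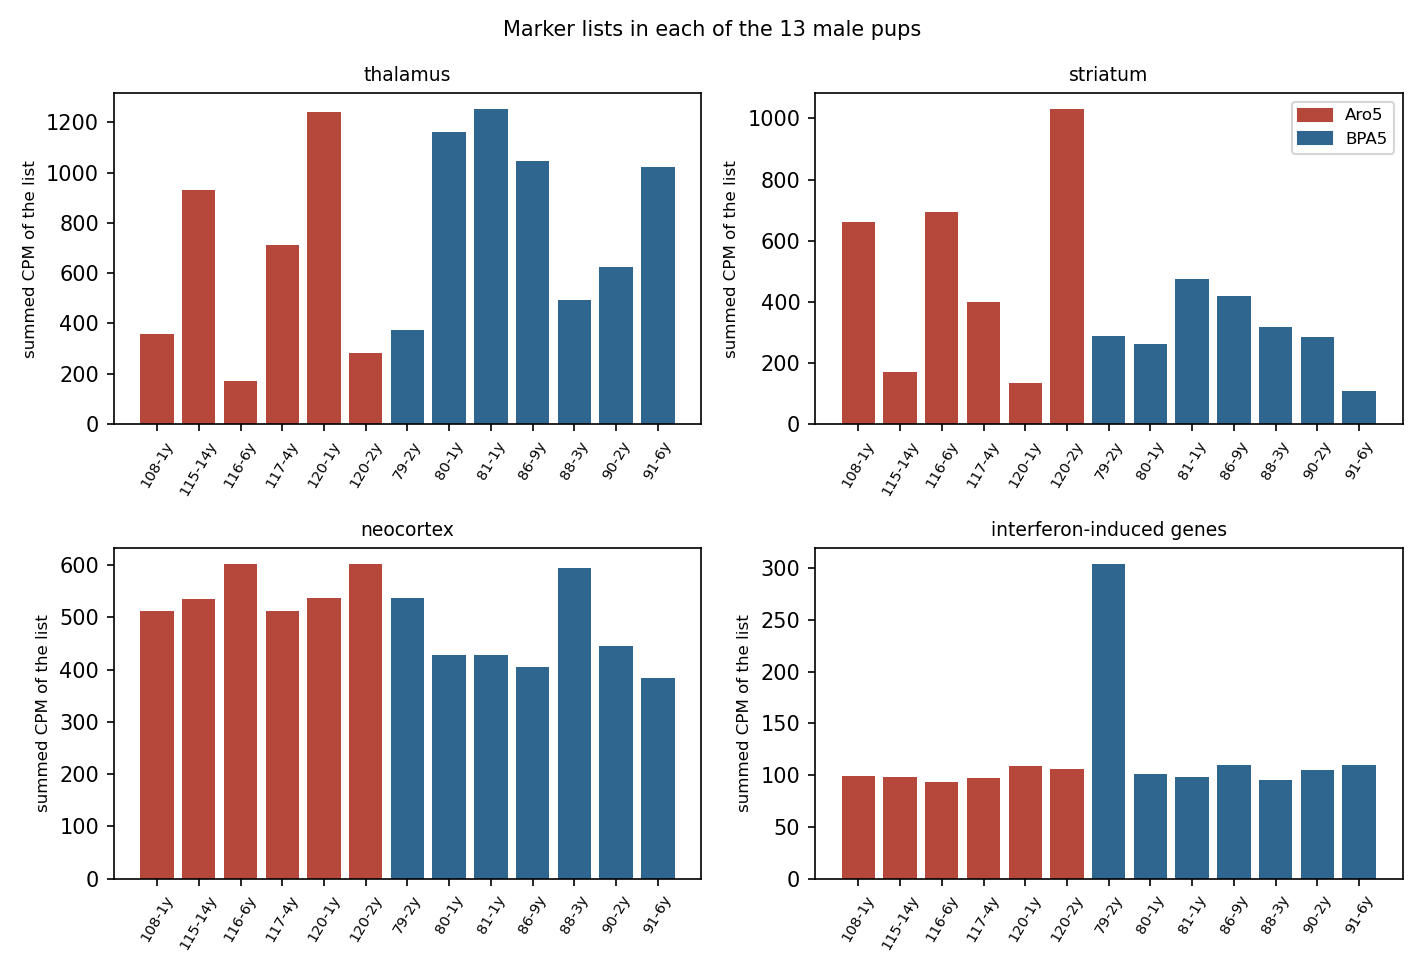
Summed CPM of 4 gene lists in each of the 13 male pups, Aro5 in red and BPA5 in blue, with bars from 0. Thalamic and striatal sums vary widely within Aro5 (170 to 1240 and 134 to 1030 CPM), neocortical sums are 384 to 603 CPM, and the interferon-induced list is at 304 CPM in BPA5 pup 79-2y only.

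The same contrast was then set beside that in other pups as a whole. In high-dose females (5 Aro5 and 4 BPA5), edgeR called 0 of 16386 genes after adjustment, and 649 (3.96%) were under 0.05 without it (2.48% with lower values in Aro5 and 1.48% with higher). In low-dose males (4 and 4), these were 0 of 16203 and 1516 (9.36%, 4.99% higher and 4.37% lower in Aro0.5). Since these pups came from other litters and another set of libraries, dose cannot be told apart from either. Tests of the difference between the contrasts gave 0 genes with an adjusted p under 0.05, both for sex and for dose. For sex, 661 of 17032 genes (3.88%) had an unadjusted p under 0.05. For dose, these were 2365 of 17006 (13.9%), with 8.58% toward higher and 5.33% toward lower values in high-dose Aro5. The direction of this split depended on the processing. It turned from 1459 higher and 906 lower to 1001 and 1212 with DESeq2's size factors, and to 1088 and 1289 with DESeq2. The same 13 high-dose males entered both interaction tests.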

How the data were processed

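The authors aligned single-end reads of a stranded mRNA kit to Rnor_6.0 with STAR and deposited raw counts per gene, 1 table per library, made with featureCounts according to their processing notes, which also list kallisto. Software versions, whether counting used strand and what became of multi-mapping reads are not given in the sources used here, so that values of paralogs and antisense genes are uncertain. The counts were whole numbers over 37777 genes, named from the deposited gene table.

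Groups, litters and dissection times came from the labels. In edgeR 4.0.16 (R 4.3.3), genes were filtered by filterByExpr, scaled by TMM, fitted with the 13 pups alone and no covariate, tested by the quasi-likelihood F test and adjusted by Benjamini-Hochberg over all genes tested, with a threshold of 0.05. The SE is the log2 difference divided by the square root of F, and 95% intervals use the t distribution. Levels are TMM-scaled CPM computed from the counts. Ratios were compared by exact permutation tests (scipy), with intervals from inverting the test. The scripts were tested on simulated data. Alternatives were DESeq2 1.42.0, limma-voom 3.58.1, DESeq2's size factors, no filter, at least 10 counts in every pup, each pup left out, dissection between 10.30 and 13.20 h, litters summed, dissection time as a covariate and chlorpyrifos males in the fit. Leaving out litter 120 and pooling with other pups were added after seeing the data.

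Genes named were the 6 with the smallest p in each direction, since none was called, the member of each list with the smallest p in each direction, and all tested members of the study, aryl hydrocarbon receptor and thyroid lists. Of these, some are given by counts only, and some are not reported here. Further genes of the receptor, calcium and marker lists were named after their values were seen. Members and lists were chosen with earlier results of these data known. No 2 libraries of a group agreed within sampling noise (median chi-square per gene at least 1.85). Pups of 1 litter, and male and female littermates, are not independent, so that p-values with several pups per litter may be too small.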

Additional observations from a re-analysis of the deposited data

Results flagged for a closer look

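Among 62 genes and both ratios in males, and Slfn4 in the other pups, 132 groups of pups were examined, of which 8 held a value whose gap to the nearest pup was a large part of the range of its group (Dixon's criterion at the 95% level, on a log scale). Chance marks about 1 group in 20. In Aro5, pup 108-1y was lowest in Dio2 (3.42 CPM), Sox6 (11.0 CPM) and Gli3 (2.52 CPM), and pup 120-1y was lowest in LOC103693973 (0.330 CPM). In BPA5, pup 88-3y was lowest in Tmprss5 (1.78 CPM) and Sox17 (2.42 CPM), pup 79-2y highest in Eif3c (207 CPM) and pup 81-1y highest in Mbp (295 CPM).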

How the results depend on the processing

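For the 13 males, 0 genes were called under all alternatives except DESeq2 (1 gene, Slfn4) and the fit of 3 sets with set as a term (1 gene, Slfn4). Leaving out 1 pup moved the number with an unadjusted p under 0.05 from 542 to between 280 (without 120-2y) and 1448 (without 88-3y). It was 1386 without 108-1y, 350 without 116-6y and 354 without 80-1y. It was 1476 within the time window, 1418 with limma-voom, 1056 without a filter and 372 with litters summed. The higher and lower counts turned from 223 and 319 to 988 and 398 without 108-1y, and to 1024 and 452 within the time window.

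In females DESeq2 called 2 genes (Snx10 and Sla2), and leaving out 1 pup gave 0 to 1 (Snx10 without Aro5 replicate 5, LOC680107 without BPA5 replicate 2). In low-dose males DESeq2 called 21 genes, no filter 2 (Calcr and RT1-N2), and leaving out 1 pup 0 to 2 (RT1-N2 and RT1-T24-1). For the sex interaction, leaving out 1 pup gave 0 to 1 (LOC102547415, without Aro5 pup 108-1y). These genes were named after their values were seen. For the dose interaction, the split of higher and lower values turned with DESeq2 and with its size factors. It also turned in some fits with 1 pup left out, such as without Aro5 male replicate 5 (843 and 1102). Its direction stayed without a filter (1439 and 1352) and with at least 10 counts in every pup (1083 and 888). The cause of these changes was not tested. Neither ratio passed its test under any of its alternatives, with differences of -0.35 to -0.06 (KCC2/NKCC1, log2) and -0.20 to -0.07 (Pvalb/Nos1) when 1 pup was left out. Of 6684 alternative values of single genes, 678 had another sign, none of them with a call. No paired analysis was possible because replicate numbers only follow the order of the libraries and the groups share no litter. This refers to Aro against BPA groups. Within a chemical, 4 litters of Aro5 females and 3 of BPA5 females also gave high-dose males. A pairing of the sexes by litter was not tested. Precision is limited by 6 and 7 pups, and intervals were widest under 1 CPM (median half-width 0.60 on the log2 scale).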
